A study of Drosophila melanogaster with 6 samples.

Results

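Knockdown of Syncrip (Syp) inside prospero (pros) neuroblast (NB) tumors was compared with the pros knockdown alone, gene by gene across the genome. The comparison holds 4 of the 6 libraries of the series, 2 of poxn > prosRNAi, SypRNAi tumors and 2 of poxn > prosRNAi tumors, and the other 2 libraries are wild-type ventral nerve cords (VNCs) that serve here only as a level. The members are the genes that passed a filter on low counts in these 4 libraries, 13703 of the 17494 genes in the table. Below, the groups are called pros Syp tumors, pros tumors and wild type.

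Both tumor groups carried the poxn-Gal4 driver, a fluorescent nuclear reporter, extra Dicer-2 and the hairpin against pros, and the pros Syp tumors carried a hairpin against Syp in addition. The labels give an age of 6 days for every sample, whereas the study's methods give an older age for the adults. The driver acts in a few thoracic NBs, so the tumors arise from these, but whole VNCs were taken with the tumor on them and a library also holds RNA of the normal neurons and glia. VNCs of both sexes were pooled, and the methods call the samples of a group technical replicates. The p-values therefore measure the spread between these samples, which may leave out differences between animals.

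NBs are the stem cells of the fly nervous system. They age through a series of RNA-binding proteins and transcription factors, of which Imp marks the early and Syp and Eip93F the late part in the larva. Prospero is a transcription factor that ends NB identity in the daughter cell, and without it the daughters go back to dividing as NBs. Syp is an RNA-binding protein that represses early factors and promotes the late ones.

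Library totals ranged from 86098417 to 128107088 counts, and genes of ribosomal RNA took 15.6% to 23.8% of them. Levels are in CPM, the count of a gene scaled by the library total to a common depth, after TMM scaling of all 6 libraries, and a log2 fold change is positive where the level was higher in pros Syp than in pros tumors. At these depths a count of 3 stood for at most 0.0387 CPM. The first principal component held 71.4% of the variance and separated the groups, and the second, with 21%, separated the libraries within each group. The median absolute log2 difference was 0.114 between the pros libraries, 0.12 between the pros Syp libraries and 0.233 between the group means.

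The knockdown itself was checked first. Syp (chromosome 3R, 20756729 to 20810726, FlyBase release 6) was at 2066 and 1762 CPM in the pros tumors and at 422 and 459 CPM in the pros Syp tumors, against 699 and 689 CPM in the wild type. The groups did not overlap, and Syp fell by 2.12 on the log2 scale (standard error, SE, 0.11) at an adjusted p of 0.00349 in the edgeR quasi-likelihood fit. The targeted gene pros was at 736 and 808 CPM in pros tumors, at 1045 and 1254 CPM in pros Syp tumors and at 2505 and 2335 CPM in the wild type. The target of both knockdowns thus also differed between the groups (log2 fold change 0.58, SE 0.11, edgeR adjusted p = 0.0274). Both temporal markers moved with Syp in opposite directions: Imp was at 1682 and 1509 CPM against 4318 and 4203 CPM, and Eip93F at 247 and 242 CPM against 37.9 and 39.0 CPM, in pros and pros Syp tumors in turn. chinmo, a transcription factor gene of the early part, was at 1260 and 1265 CPM against 1449 and 1258 CPM and did not pass the test (edgeR adjusted p = 0.435). These are RNA levels. The paper reports that chinmo is regulated after transcription in these tumors, and that by staining nearly all tumor NBs held Chinmo protein after Syp knockdown.

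Tissue markers were read before the results. The NB genes mira, grh, dpn, wor and ase were well above their wild-type levels in all 4 tumor libraries: wor, for example, was at 320.0 and 280.0 CPM in pros and at 380.0 and 325 CPM in pros Syp tumors, against 0.364 and 0.189 CPM in the wild type. Summed over 16 neuron markers the level was 2249 and 2645 CPM in pros, 3140 and 4129 CPM in pros Syp tumors and 11605 to 11673 CPM in the wild type. Marker genes of neurons were thus at a lower summed level in the tumor libraries than in the wild type, and higher in both pros Syp than in both pros libraries. In whole tissue, fewer cells of a type and less RNA per cell cannot be told apart.

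At an adjusted p under 0.05, 3190 of the 13703 genes tested (23.3%) differed between the tumors, 1489 (10.9%) higher and 1701 (12.4%) lower in pros Syp tumors. Both libraries of one group lay above both of the other for every one of these genes, as they did for 67.7% of all genes tested. Most changes were small: among the higher genes the median fold was 1.71 and 540 of the 1489 reached a 2-fold change, and among the lower genes the median fold was 1.45 and 376 of the 1701 did. Each library was also left out in turn. The group left with 1 library then has no spread of its own, so the number called depends on which pair sets the spread. As the groups did not overlap for any called gene, leaving out 1 library could hardly reverse a direction. No direction was reversed in any of these fits. The median log2 fold change over the genes tested was 0.002 to 0.030 in them, against 0.016 in the full comparison. At the stricter threshold of 0.001, edgeR called 0 genes (5435 had an unadjusted p under 0.05) and DESeq2 2005. Scaled by library totals alone, every log2 fold change shifted by about 0.13, and the calls were 2435 higher and 956 lower.

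**Figure D1:**
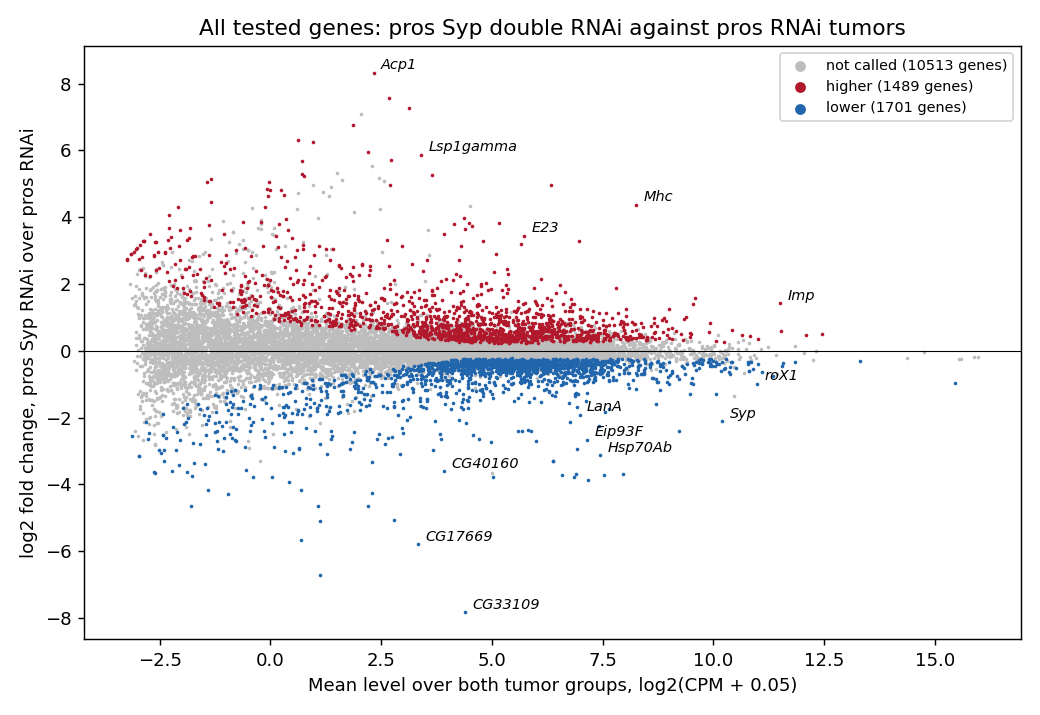
Each dot is 1 of the 13703 genes tested. The x axis is the log2 of the mean CPM over both tumor groups plus 0.05, the y axis the log2 fold change of pros Syp over pros tumors, red the 1489 genes called higher, blue the 1701 called lower and grey the rest. The largest changes in both directions lay among genes of low to middling level, and Imp, Syp, roX1 and Mhc stand out among the abundant genes.

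In the groups of genes that follow, the counts are read against these 2 shares of all genes, 10.9% higher and 12.4% lower, and against the median log2 fold change over all genes tested, 0.02. The members of each group were chosen by their known role or their symbol, with earlier results of these data known.

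Of 16 transcription factors of the snail and Sox families and proneural factors tested, 5 rose (sna, esg, scrt, ase and D) and 1, tap, fell, with a median log2 fold change of 0.36. sna, a zinc-finger repressor that acts with its relatives in NB division (2L, 15476593 to 15478260), was at 12.7 and 12.4 CPM in pros tumors and at 73.2 and 63.1 CPM in pros Syp tumors, against 0.208 and 0.106 CPM in the wild type. On the log2 scale it rose by 2.44 (SE 0.10, edgeR adjusted p = 0.00315). Its neighbour and relative esg (2L, 15333866 to 15336138) went from 18.8 and 19.1 CPM to 64.2 and 60.2 CPM, with wild-type libraries at 0.251 and 0.265 CPM. The third member of this cluster, wor, differed by only 0.24 on the log2 scale and did not pass the test. The SoxB gene D was near 1 CPM in pros tumors, with 0.969 and 1.24 CPM, and at 8.58 and 13.8 CPM in pros Syp tumors. The wild-type VNCs, at 5.06 and 4.11 CPM, lay between the tumors for D and far below both for sna and esg.

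The zinc-finger gene nerfin-1, which keeps young neurons from returning to an NB-like state, rose from 22.7 and 14.7 CPM to 56.6 and 58.5 CPM (log2 fold change 1.62, edgeR adjusted p = 0.0126). Among 13 BTB zinc-finger factors, 2 rose and 3 fell. The repressor ttk rose from 10.9 and 11.3 CPM to 41.5 and 43.5 CPM, while rib fell by 1.36 and ken by 0.55 on the log2 scale. Of the 13 embryonic temporal factors tested, D rose and Kr fell, from 5.23 and 6.57 CPM to 1.87 and 2.16 CPM, and the other 11 did not pass the test. nub is an example with a log2 fold change of 1.13. lin-28, an RNA-binding protein of early stem cells in many animals, rose from 10.6 and 10.3 CPM to 31.4 and 26.3 CPM and had wild-type levels of 0.165 and 0.159 CPM.

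Of 11 Hox genes and cofactors tested, 5 rose and 0 fell, with a median log2 fold change of 0.48. Ubx, the Hox gene of the posterior thorax and first abdominal segment, was at 8.18 and 9.33 CPM in pros tumors, at 30.3 and 39.1 CPM in pros Syp tumors and at 40.9 and 43.1 CPM in the wild type. Antp, the thoracic Hox gene, rose from 201 and 195 CPM to 312 and 299 CPM, above the wild-type 131 and 127 CPM. lab and pb also rose, from levels under 2 CPM, as did the cofactor gene exd. Between lab and pb lies the noncoding RNA gene pncr002:3R (3R, 6699560 to 6700164). It was at 11.8 and 7.92 CPM in pros tumors and at 84.8 and 96.2 CPM in pros Syp tumors, and at 0.052 and 0.0227 CPM in the wild type, the last being under or near the level of 3 counts. pncr002:3R was picked after its values were seen, like the other genes described below that belong to none of the groups counted.

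E23, an ABC transporter gene induced by the steroid hormone ecdysone, was at 8.91 and 9.05 CPM in pros tumors and at 88.8 and 106 CPM in pros Syp tumors and so rose by 3.44 on the log2 scale (SE 0.11, edgeR adjusted p = 0.00315). The wild-type libraries were at 18.5 and 15.9 CPM. Among 25 genes of ecdysone synthesis and response, 4 rose (E23, ImpL2, Eip75B and Hr39), 2 fell (ftz-f1 and Eip63E) and the receptor gene EcR, at a log2 fold change of -0.26, did not pass the test. The median of this list was 0.09, so the change of E23 was not shared by most of it.

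**Figure D2:**
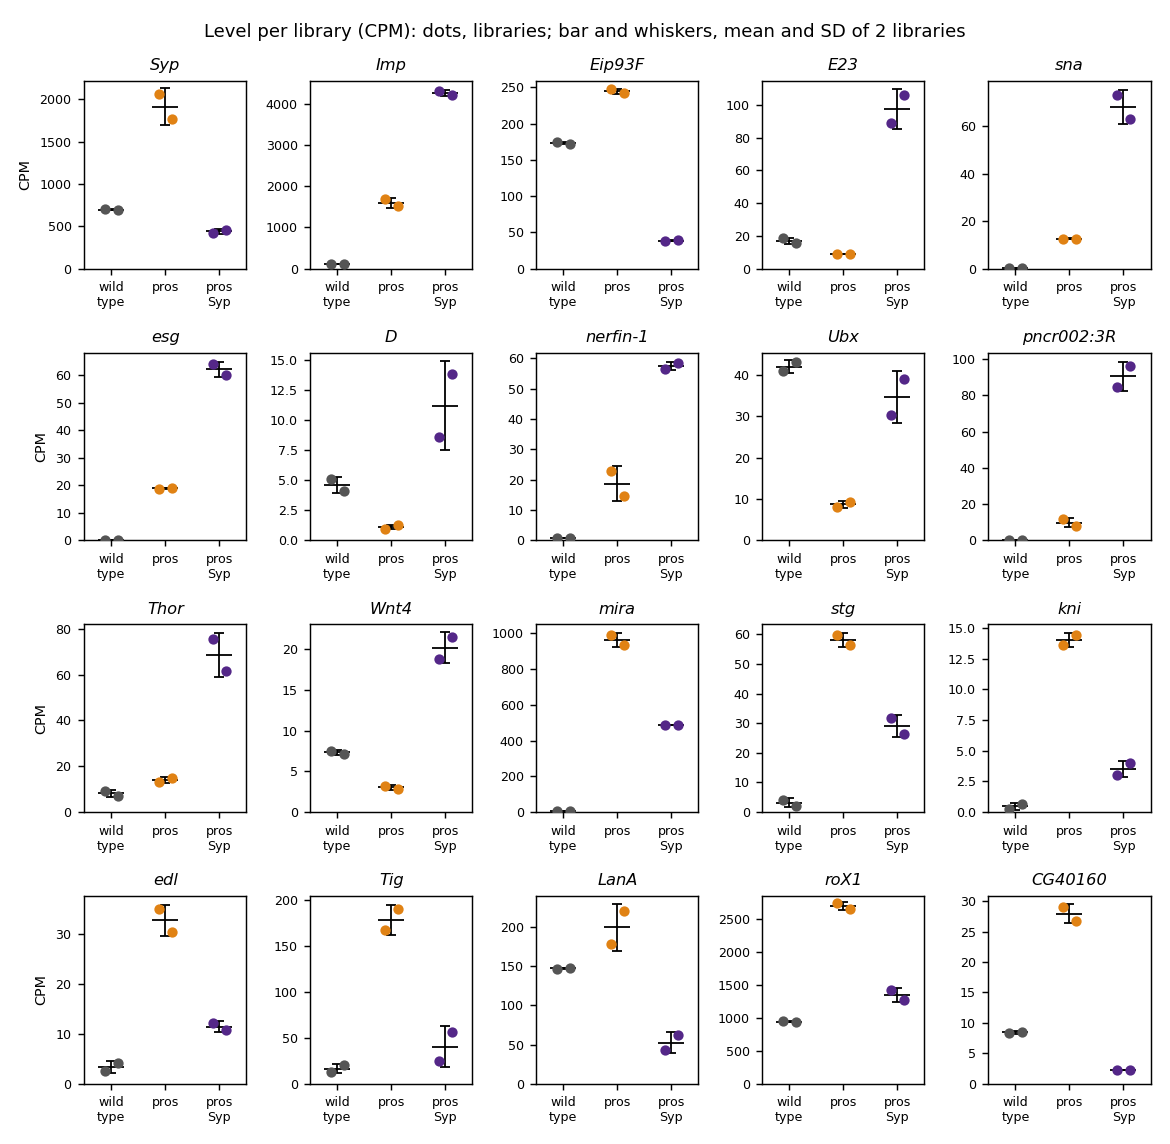
Level in CPM (y axis, linear, from 0) of 20 genes in wild type (grey), pros tumors (orange) and pros Syp tumors (purple). Dots are single libraries and the bar with whiskers is the mean and SD of 2 libraries. Imp, E23, sna, esg, D, nerfin-1, Ubx, pncr002:3R, Thor and Wnt4 were higher in both pros Syp than in both pros libraries, and the other 10 genes lower.

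Several growth regulators rose. Of 24 genes of insulin and TOR signaling, 8 rose and 1 fell, with a median log2 fold change of 0.27. Thor, the translation repressor 4E-BP, was at 13.1 and 15.0 CPM in pros and at 75.5 and 61.7 CPM in pros Syp tumors (log2 difference 2.29, SE 0.13, edgeR adjusted p = 0.00403), against 9.15 and 7.20 CPM in the wild type. ImpL2, a secreted antagonist of insulin-like peptides, rose from 14.2 and 15.1 CPM to 36.6 and 38.8 CPM. The amino acid transporter genes mnd and path rose too, mnd from 38.2 and 38.3 CPM to 110.0 and 118 CPM and path from 134 and 118 CPM to 220.0 and 259 CPM. Among the list were thus both activators of growth signaling, such as Akt1 and Rheb, and inhibitors such as Thor, foxo and ImpL2. chico, the insulin receptor substrate, fell by 0.35 on the log2 scale.

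The TNF ligand gene egr rose from 25.1 CPM in both pros libraries to 44.8 and 51.2 CPM, and its receptor gene grnd from 0.377 and 0.374 CPM to 1.33 and 0.898 CPM. The ligand gene Wnt4 rose from 3.25 and 2.81 CPM to 18.8 and 21.5 CPM. dap, which encodes an inhibitor of cyclin-dependent kinase, rose from 20.3 and 19.0 CPM to 52.4 and 45.6 CPM and had wild-type levels of 7.59 and 6.87 CPM. Of the 11 genes of cell cycle inhibition and growth arrest tested, 1, dap, rose and 3, trbl, Myt1 and Irbp18, fell. Among 14 apoptosis genes, egr and skl rose and the caspase gene Drice fell, with log2 fold changes of 0.94, 1.18 and -0.42.

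Axon guidance and adhesion genes, dpr and DIP genes and nicotinic receptor subunits rose in larger numbers than they fell. Of 61 axon guidance and adhesion genes, 25 rose and 5 fell, with a median of 0.55. NetB, which encodes a secreted guidance cue, rose from 31.8 and 33.4 CPM to 78.4 and 106 CPM, and robo2, a receptor for the repellent Slit, from 26.0 and 31.9 CPM to 92.0 and 64.2 CPM (41% of the robo2 exons overlap asRNA:CR44897). kek5, a leucine-rich repeat protein gene, moved the other way, from 165 and 154 CPM to 52.3 and 55.5 CPM, and had wild-type levels of 40.5 and 35.2 CPM. Of 30 dpr and DIP genes, whose proteins pair neurons with their partners, 7 rose and 0 fell, with a median of 0.50. Of 10 nicotinic acetylcholine receptor subunits, 5 rose and 1 fell: nAChRalpha3 went from 45.7 and 38.4 CPM to 126 and 114 CPM, and nAChRalpha4 from 124 and 132 CPM to 65.5 and 67.3 CPM. Of 33 ion channel genes, 4 rose (12.1%) and 3 fell (9.09%), near the shares of all genes, with a median of 0.27. The ion channel counts were 10 higher and 1 lower with library totals alone and 12 and 2 with the replicate number as a term of the fit (a replicate block), and those of the dpr and DIP genes 12 and 0 and 15 and 2.

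Of 16 neuron markers, 6 rose and 1 fell, with a median of 0.64, close to the medians of the adhesion genes, the dpr and DIP genes and the receptor subunits (0.65 for the last). The 6 were the general neuronal genes elav and cpx, the cholinergic genes ChAT and VAChT, which share exons, and the GABAergic genes Gad1 and VGAT. With library totals alone 14 rose and 0 fell, and with the replicate block 13 rose and 0 fell. elav, which encodes a neuronal RNA-binding protein, rose from 91.4 and 96.3 CPM to 213 and 217 CPM. The summed neuron marker level given above ran from 2249 to 4129 CPM over the tumor libraries, and no defining neuron marker was at 0. Its part in the rise of the cell-surface genes was not tested. Of 13 glial markers 4 rose, the transporter gene Gat from 86.4 and 105 CPM to 279 and 420 CPM among them, and 2, wrapper and loco, fell. The glial determinant repo did not pass the test (log2 difference -0.18). The median over the glial markers was -0.03, and scaling by library totals alone turned it to 0.11.

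**Figure D3:**
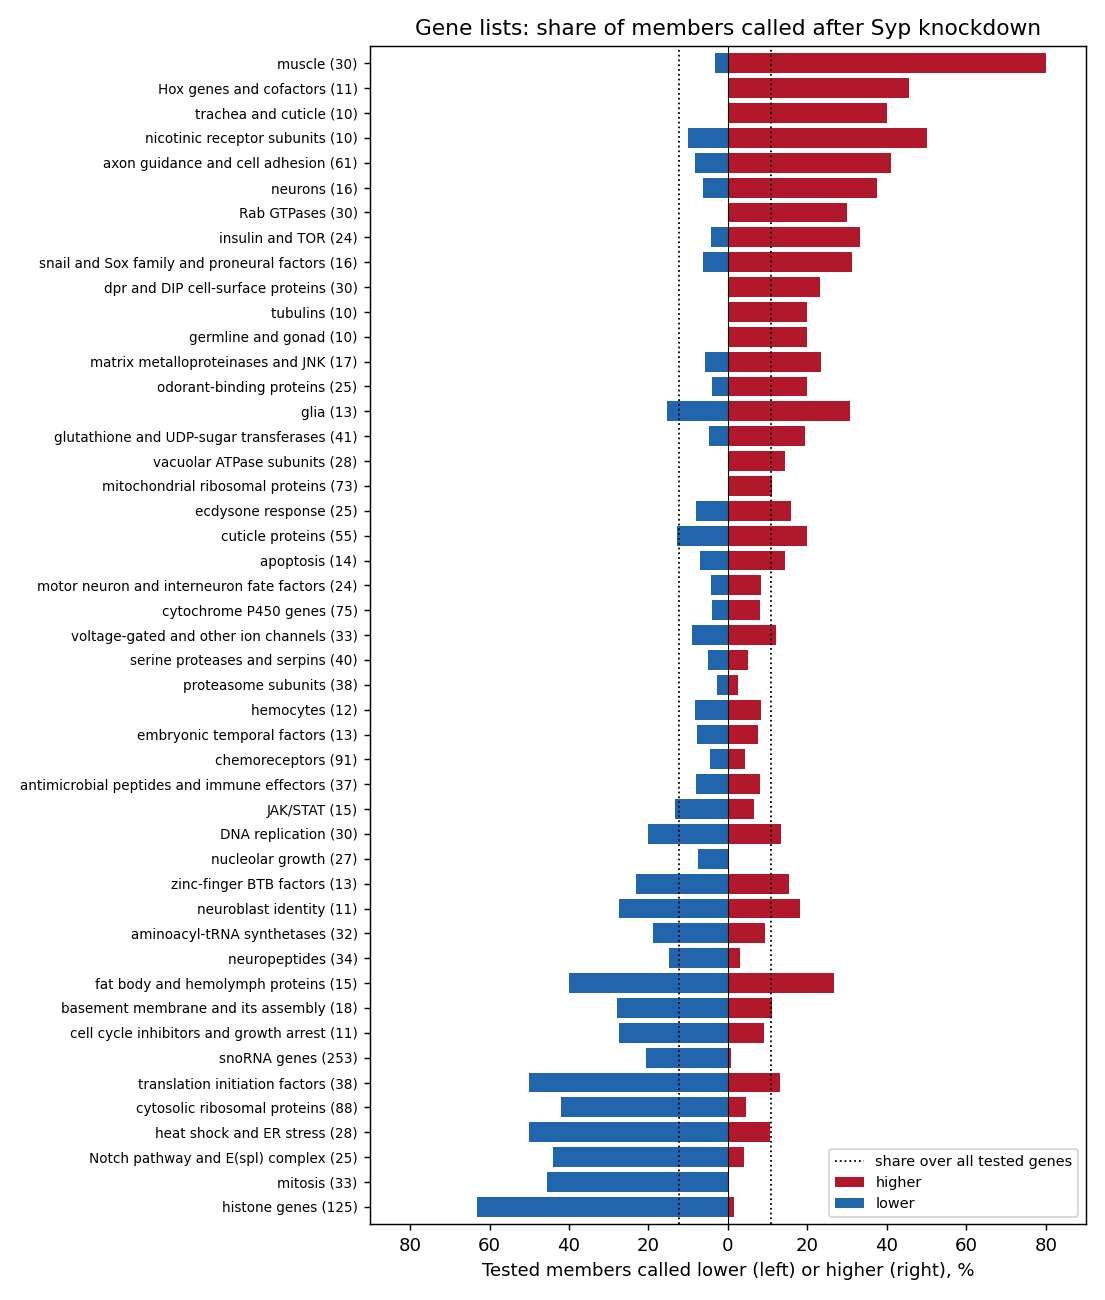
For each gene list (number of members tested in parentheses) the bars give the share of tested members called higher (red, right) or lower (blue, left) in pros Syp tumors. The dotted lines mark the shares over all genes tested, 10.9% and 12.4%. Muscle genes reached 80% higher, and histone genes 63.2% lower.

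Of 33 mitotic genes tested, 15 fell, 0 rose and 18 did not pass the test, with a median log2 fold change of -0.18, and with library totals alone as the scale 9 fell and 0 rose. The string gene stg, the Cdc25 phosphatase that starts mitosis (3R, 29251826 to 29255800), was at 59.7 and 56.4 CPM in pros tumors, at 31.8 and 26.4 CPM in pros Syp tumors and at 4.2 and 2.12 CPM in the wild type (log2 difference -0.99, SE 0.11, edgeR adjusted p = 0.00943). The kinesin gene Klp3A fell from 190.0 and 184 CPM to 97.7 and 98.6 CPM, and the kinase gene polo from 319 and 306 CPM to 212 and 183 CPM. All stayed far above their wild-type level. The paper also counts stg among the late temporal genes, and it reports larger tumors after Syp knockdown. Cell division was not measured here. Of 30 DNA replication genes, 4 rose and 6 fell, with a median of 0.01, and the balance turned with library totals alone, to 7 higher and 2 lower, while the replicate block gave 1 higher and 6 lower. The helicase subunit gene Mcm2 fell from 170.0 and 168 CPM to 95.7 and 100 CPM, while Mcm6 rose by 0.31 on the log2 scale.

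Of 11 NB identity genes, ase and D rose, and mira, insc and klu fell. mira, whose protein carries Pros and Brat into the daughter cell, went from 988 and 934 CPM to 488 and 485 CPM (log2 difference -0.98, SE 0.06, edgeR adjusted p = 0.00416), against 4.40 and 3.44 CPM in the wild type. grh, SoxN and wor did not pass the test, and neither did dpn, whose exons overlap asRNA:CR44275 over 59.3%. Of 25 Notch pathway genes 11 fell and 1, the ligand gene Dl, rose. Of the 10 genes of the E(spl) complex, the direct targets of Notch, 6 fell and 0 rose, the most abundant, E(spl)mgamma-HLH, from 30.8 and 27.2 CPM to 19.9 and 22.9 CPM. The summed level of the 10 genes was 67.4 and 56.3 CPM in pros and 40.6 and 43.4 CPM in pros Syp tumors.

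Of 125 histone genes 79 fell and 2 rose, with a median of -0.66. All 23 copies of the H3 gene fell, with log2 fold changes from -1.04 to -0.79, and 20 of 22 H4 copies did. Of the H1 copies 16 of 23 passed the test, of the H2A copies 14 of 20 and of the H2B copies 1 of 23. Every tested copy of these 5 genes had a fitted change below 0. The summed level of the H3 copies was 3185 and 2631 CPM in pros, 1410 and 1671 CPM in pros Syp tumors and 29.0 and 18.1 CPM in the wild type. The copies of one histone are nearly identical, so reads cannot be assigned to single copies and these genes are not independent counts.

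Of 38 initiation factor genes 19 fell and 5 rose, with a median of -0.27. Of 14 genes of eIF3, the complex that recruits the small ribosomal subunit to mRNA, 11 fell and 0 rose. The subunit gene eIF3l went from 553 and 583 CPM to 312 and 277 CPM (log2 difference -0.95, SE 0.08, edgeR adjusted p = 0.00711), eIF3c from 932 and 931 CPM to 551 and 502 CPM and eIF3b from 722 and 726 CPM to 435 and 427 CPM. Of the other 3, eIF3j, the loosely bound subunit, was at 82.1 and 72.8 CPM against 74.8 and 73.6 CPM and did not pass the test. eIF3d1 had a log2 fold change of -0.17, and eIF3g2 was under 1 CPM in the tumors. The RNA helicase gene eIF4A fell from 2213 and 2108 CPM to 1441 and 1380 CPM. The rises of eIF1, eIF1A, eIF4H1 and eIF4EHP were of 0.32 to 0.45 on the log2 scale, and eIF4E5, at 0.776 and 0.748 CPM in pros tumors, rose by 0.89.

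**Figure D4:**
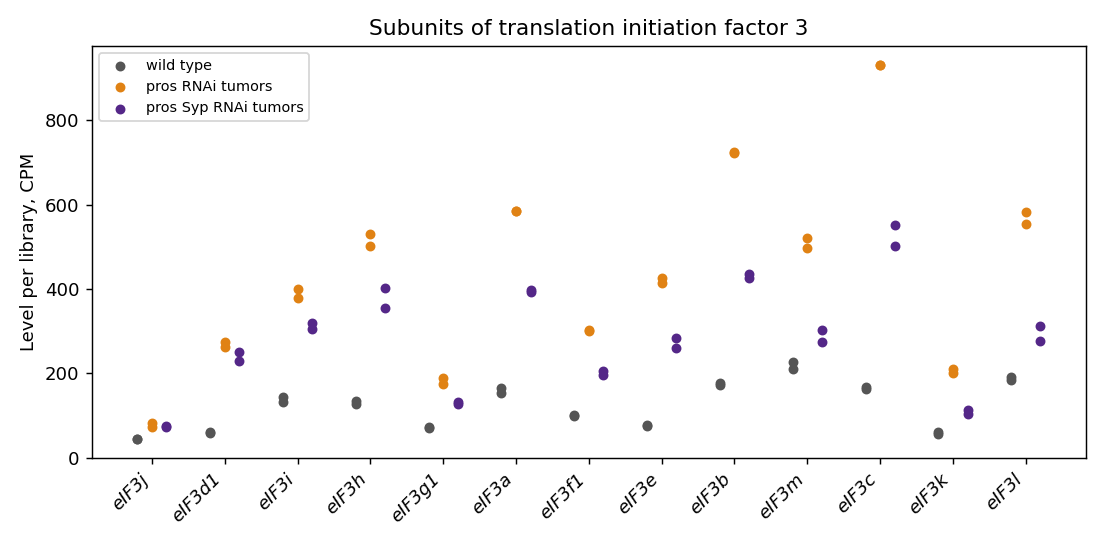
Level per library in CPM (y axis, linear, from 0) of the 13 eIF3 genes above 10 CPM in pros tumors, ordered along the x axis from the smallest to the largest fall. Dots are single libraries of wild type (grey), pros tumors (orange) and pros Syp tumors (purple). Apart from eIF3j and eIF3d1, all fell, and all purple dots lie above the grey ones of the same gene.

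Cytosolic ribosomal protein genes fell by less. Of 88 tested 37 fell and 4 rose, with a median of -0.22, and with library totals alone as the scale 17 fell and 7 rose (median -0.09). Summed over the family the level was 96546 and 94823 CPM in pros, 79105 and 78245 CPM in pros Syp tumors and 33049 and 34879 CPM in the wild type. RpL3 went from 3258 and 3280 CPM to 1986 and 1900 CPM, and RpL27A from 1599 and 1409 CPM to 602 and 629 CPM. Of the 4 that rose, RpS19b and RpS5b are paralogs of low level, RpS19b going from 0.506 and 0.361 CPM to 1.74 and 3.14 CPM. Of 73 mitochondrial ribosomal protein genes 8 rose (11%, against 10.9% of all genes) and 0 fell, with a median of 0.08. Of 27 nucleolar growth genes 2 fell (7.41%, against 12.4% of all genes) and 0 rose. Myc, with 61.2% of its exons shared with CG12535, was at 944 and 902 CPM against 1475 and 1100 CPM and did not pass the test (edgeR adjusted p = 0.0781).

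Small nucleolar RNAs (snoRNAs) guide the modification of ribosomal RNA. Of 253 tested, 52 fell and 2 rose, with a median of -0.21. By their names, 107 were guides of pseudouridylation (Psi), of which 40 fell and 0 rose (median -0.56), and 94 were of the C/D class (Me or Or-CD), of which 1 fell and 2 rose (median 0.01). The Psi genes had a median length of 140 bases and summed levels of 2665 and 3818 CPM in pros and 1881 and 1934 CPM in pros Syp tumors, and the C/D genes had 79.5 bases and 180.0 and 203 CPM against 162 and 160.0 CPM. Both the length and the level thus differed between the classes, and their part in the difference was not tested. The copies of a snoRNA are similar in sequence.

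In the mitochondrial genome the 2 kinds of gene also differed. Of 13 protein-coding genes 4 rose and 0 fell (median 0.30), and of 20 transfer RNA genes 11 fell and 0 rose (median -0.98). The summed level of the former was 9046 and 8648 CPM in pros and 10046 and 10564 CPM in pros Syp tumors, and of the latter 53.4 and 46.7 CPM against 25.5 and 26.6 CPM. The transfer RNA genes are short, with a median of 66 bases.

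Of 28 heat shock and chaperone genes 14 fell and 3 rose. Of 6 inducible Hsp70 copies 5 fell, for example Hsp70Ab from 335 and 289 CPM to 51.7 and 19.5 CPM, with 82.6 and 109 CPM in the wild type. The copies are nearly identical, and their single values are uncertain for that reason. Hsp22, with 157 and 147 CPM against 20.2 and 10.6 CPM, shares most of its exons with CG4456. The constitutive chaperone gene Hsc70-4 rose, from 2489 and 2238 CPM to 3587 and 3550 CPM.

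Of 18 basement membrane genes 5 fell, 2 rose and 11 did not pass the test. The laminin subunit genes LanA and LanB1 fell, LanA from 178 and 221 CPM to 43.2 and 62.1 CPM (wild type 147 and 148 CPM) and LanB1 from 95.2 and 105 CPM to 16.3 and 21.3 CPM (log2 difference -2.41, SE 0.15, edgeR adjusted p = 0.00403). LanB2 and wb, the other laminin subunits on the list, fell by 1.02 and 0.87 on the log2 scale. Tig, the integrin ligand tiggrin, went from 167 and 190.0 CPM to 24.6 and 56.2 CPM and had wild-type levels of 12.8 and 19.9 CPM. The collagen IV gene vkg and the integrin gene mew rose instead, mew from 6.60 and 6.05 CPM to 17.1 and 15.3 CPM. Without pros replicate 2 the median of the list turned from -0.24 to 0.07.

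Further genes that fell were well above their wild-type level in the pros tumors. kni, a nuclear receptor of the early embryo, fell from 13.6 and 14.4 CPM to 3.05 and 3.99 CPM, with 0.260 and 0.651 CPM in the wild type. edl, which encodes a regulator of ETS transcription factors, fell from 35 and 30.5 CPM to 12.2 and 10.7 CPM. The caspase gene Strica went from 24.2 and 25.3 CPM to 4.45 and 3.43 CPM, the growth factor gene Pvf2 from 16.0 and 14.2 CPM to 7.54 and 3.58 CPM, and lft, a modulator of Fat and Dachsous signaling, from 23.4 and 19.4 CPM to 5.78 and 4.02 CPM. roX1, a noncoding RNA of the dosage compensation complex of males, was at 2741 and 2659 CPM in pros and at 1428 and 1274 CPM in pros Syp tumors, against 946 and 941 CPM in the wild type. roX2 fell as well, from 152 and 92.1 CPM to 58.6 and 44.0 CPM. The methods state how many females and males were dissected, with more females than males, and do not set the groups apart. The sex makeup of each library was not measured here, and its part in the fall of roX1 and roX2 was not tested.

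Among the 20 genes with the largest falls, 2 kinds of pattern were seen. Some were low in the wild type: CG17669 was at 19.9 and 19.8 CPM in pros, at 0.268 and 0.415 CPM in pros Syp tumors and at 0.503 and 0.567 CPM in the wild type (log2 difference -5.79, SE 0.23, edgeR adjusted p = 0.00315). CR44316, a noncoding RNA gene, went from 4.2 and 4.26 CPM to 0.0382 and 0 CPM, and the coding gene CG7309 from 3.93 and 4.02 CPM to 0.176 and 0.0966 CPM. The largest fall was that of CG33109, from 39.9 and 43.8 CPM to 0.268 and 0.0386 CPM, with unequal wild-type levels of 46.1 and 10.8 CPM. CG40160 had the smallest adjusted p of the comparison together with Eip93F, 0.00197 in edgeR: it was at 29.0 and 26.8 CPM in pros, at 2.24 and 2.27 CPM in pros Syp tumors and at 8.28 and 8.57 CPM in the wild type. Tep4, a thioester-containing immune protein gene, went from 65.8 and 55.6 CPM to 4.80 and 4.06 CPM, with 23 and 32.5 CPM in the wild type.

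Other large falls were of genes that are high in tissues outside the nerve cord. The yolk protein genes, made in the fat body and ovary of females, all fell, Yp1 from 406 and 285 CPM to 38.5 and 13.6 CPM and Yp2 from 294 and 136 CPM to 21.4 and 9.56 CPM, while the wild-type libraries held 981 to 1686 CPM of either. fit, also a fat body gene of females, went from 15.2 and 3.32 CPM to 0.666 and 0.261 CPM. Of 15 fat body and hemolymph genes, 6 fell and 4 rose. Their summed level was 1630 and 1030 CPM in pros, 382 and 303 CPM in pros Syp tumors and 5909 and 6839 CPM in the wild type. The larval genes Fbp1 and Fbp2 were near the level of 3 counts in the pros tumors, and no other member was below it in any library. The part of such tissue in any single result was not tested.

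Some of the genes with the largest falls also differed between the wild-type libraries. whe was at 278 and 265 CPM in pros and 30.0 and 7.21 CPM in pros Syp tumors, but at 1037 and 85.2 CPM in the wild type, and lcs at 950.0 and 51.2 CPM there. Of the 134 genes that fell at least 4-fold, 12 lay over 3-fold apart in the wild type, against 211 (1.54%) of the 13703 genes tested. For the 181 genes that rose at least 4-fold the number was 11.

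The 20 largest rises included 3 cuticle genes (Acp1, Cpr100A and Cht5), 2 larval fat body genes (Fbp1 and Lsp1gamma), the muscle gene Act88F, the peptide genes AstCC and Nplp3 and 4 noncoding RNA genes, and most of the others have no name beyond a CG number. Acp1, a cuticle protein gene, was at 0.0215 and 0 CPM in pros and at 6.42 and 13.6 CPM in pros Syp tumors, at least 166-fold higher in the lower of the pros Syp libraries than the level of 3 counts in a pros library. The larval fat body gene Fbp1 went from 0.0431 and 0.0516 CPM to 5.19 and 20.3 CPM, and Lsp1gamma, a larval serum protein, from 0.226 and 0.451 CPM to 22.7 and 18.6 CPM. Both were under 1 CPM in the wild type. DptA, the antimicrobial diptericin, rose from 0.0862 and 0 CPM to 0.964 and 13.3 CPM, and the wild-type libraries differed by more, with 0.225 and 12.3 CPM. Of the 181 genes with at least a 4-fold rise, 136 were under 1 CPM in pros tumors.

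Muscle genes rose as a group: of 30 tested, 24 rose and 1, Msp300, fell, with a median of 2.25. The muscle myosin heavy chain gene Mhc went from 30.1 and 26.1 CPM to 376 and 796 CPM (wild type 120.0 and 192 CPM) and so rose by 4.38 on the log2 scale (SE 0.41, edgeR adjusted p = 0.00775). Act88F, the actin of flight muscle, went from 5.01 and 4.91 CPM to 94.3 and 218 CPM and had wild-type levels of 29.9 and 15.3 CPM. Over the whole list the summed level was 4048 and 4328 CPM in pros and 4633 and 5668 CPM in pros Syp tumors. In the wild type it was 10233 and 10685 CPM. Without Msp300, which is abundant and expressed outside muscle, the summed level was 755 to 775 CPM in pros, 1974 to 3009 CPM in pros Syp tumors and 2509 to 3022 CPM in the wild type. Of this sum Argk, which did not pass the test, gave 346 and 334 CPM in pros and 386 and 446 CPM in pros Syp tumors. In the wild type Argk was at 1134 and 1149 CPM, a large part of the sum there. Mhc and Act88F, by contrast, were above both wild-type libraries in both pros Syp libraries. No member was at 0 in any library. The pros Syp libraries lay further apart in this sum than the wild-type or the pros libraries did, and the part of muscle in the other rises was not tested. Of 10 trachea and cuticle markers 4 rose and 0 fell (median 1.33), and of 12 blood cell markers NimC4 rose and crq fell.

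Called genes also lay side by side. Runs of at least 3 neighbouring tested genes that changed at least 4-fold in the same direction were looked for after the values were seen. The longest held 8 genes on 3L from 53873 to 98375, CG43149, Lsp1gamma, CR44510, CR44511, CR43150, CR43988, CG13405 and CG12483. All but CG43149 were among the 20 largest rises: CR44510 went from 0.0539 and 0.0645 CPM to 2.52 and 3.67 CPM, for example, and CG13405 from 0.0862 and 0.168 CPM to 8.18 and 9.85 CPM. CR44511 and CR43150 overlap each other.

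E23 has 2 neighbours, CG3285 and CG15408, that rose with it, CG15408 from 0.0431 and 0.0774 CPM to 1.21 and 1.06 CPM. Thor lies between CR43928 and CG15414, which rose as well. A run of 5 genes on 2L, CG6138, w-cup, CG34160, CG34161 and CG7329, lies at Trim9 (2L, 10544883 to 10628054), a ubiquitin ligase gene. CG7329 starts past the end of Trim9, at 10629352, and the others lie within its span. Trim9 itself went from 38.2 and 36.6 CPM to 157 and 139 CPM (log2 difference 1.98, SE 0.09, edgeR adjusted p = 0.00328), and w-cup from 3.57 and 3.35 CPM to 18.3 and 17.8 CPM. Reads were counted without regard to strand, and reads from introns of Trim9 that fall on exons of the genes within its span would be counted there.

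Among the runs that fell, one held CG14070, CR45724, CG7309 and CG14069 within 10.1 kb of 2L, and one qin, CG14304 and CG14305 on 3R. qin, a piRNA pathway gene, went from 20.9 and 27.5 CPM to 4.34 and 4.17 CPM, and CG14304 from 51.7 and 57.9 CPM to 10.3 and 6.08 CPM, with 1.85 and 1.30 CPM in the wild type. CR44316 lies next to mIF3, the gene of a mitochondrial initiation factor, which fell from 20.1 and 19.8 CPM to 8.43 and 8.02 CPM.

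The calls were spread over the chromosome arms. The share called was between 22% on 3L and 24.8% on the fourth chromosome, where 19 of 105 genes rose and 7 fell, and 0 of 42 Y-linked genes passed the test. Protein-coding genes were called in 24.5% of cases and noncoding RNA genes in 15.0%. The direction went with the span of a gene from its first to its last exon. Of the genes up to 1 kb 6.2% rose and 9.25% fell, and of those over 50 kb 26.7% rose and 10.3% fell. Limited to protein-coding genes above 10 CPM in pros tumors, the shares that rose were 9.39% and 29.3% for the same classes. The direction went with the level too: of the genes over 100 CPM in pros tumors 12% rose and 29.5% fell, and of those at 1 CPM or less 7.87% rose and 2.61% fell. That level is part of the comparison itself, so those shares are a description only.

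**Figure D5:**
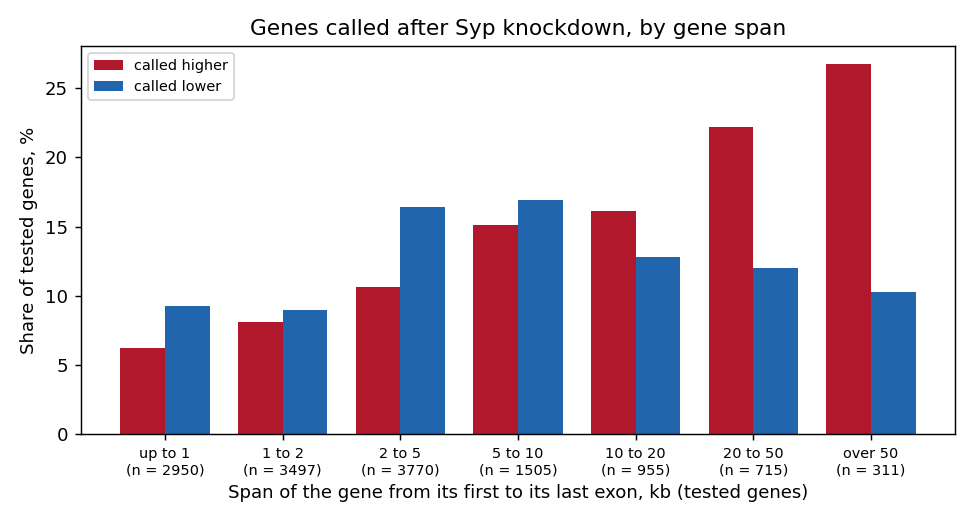
Share of the tested genes called higher (red) or lower (blue) in pros Syp tumors, in percent (y axis), for 7 classes of gene span in kb (x axis, number of genes below each). The share called higher went from 6.2% in the shortest class to 26.7% in the longest, and the share called lower was largest between 2 and 10 kb.

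Rab GTPase genes, which direct vesicle traffic, had 9 of 30 higher (30%, against 10.9% of all genes) and 0 lower, with a median of 0.22, and 14 higher with library totals alone. Rab2, for example, went from 50.7 and 51.6 CPM to 71.5 and 80.6 CPM. Vacuolar ATPase subunits had 4 of 28 higher and 0 lower. Proteasome subunits had 1 of 38 in each direction, aminoacyl-tRNA synthetases 3 of 32 higher and 6 lower, and cytochrome P450 genes 6 of 75 higher and 3 lower. Of 34 neuropeptide genes 5 fell, among them FMRFa from 57.9 and 55.8 CPM to 29.0 and 22.7 CPM and Dsk from 2.46 and 1.84 CPM to 0.298 and 0.203 CPM, and 1 of the list, Nplp3, rose. With library totals alone 4 rose and 4 fell, and with the replicate block 3 rose and 8 fell. AstCC, an allatostatin gene outside that list, rose from 0.0215 and 0.0129 CPM to 0.513 and 5.38 CPM, levels that differed widely between the pros Syp libraries. Of 37 antimicrobial peptide and immune effector genes 3 rose and 3 fell. The JAK/STAT list had 1 of 15 higher, the receptor gene dome, and 2 lower, Stat92E and its target vir-1. Genes without a name other than a CG number had 537 of 5379 higher and 496 lower, close to the shares of all genes. Noncoding RNA genes by symbol had 105 of 1410 higher and 97 lower, chemoreceptor genes 4 of 91 in each direction, serine protease and serpin genes 2 of 40 in each direction, and motor neuron and interneuron fate factors 2 of 24 higher and 1 lower. Germline genes and tubulin genes each had 2 of 10 higher and 0 lower, and genes of matrix metalloproteinases and JNK signaling had 4 of 17 higher and 1 lower.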

How the data were processed

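RNA-seq counts per gene were taken from 1 deposited table of 6 libraries. The authors made total RNA libraries depleted of ribosomal RNA, aligned the reads to dmel6 (Subread) and obtained exon counts from featureCounts 1.5.0 and FlyBase 6.19, named in the file header, while the labels list the build dm3 and call the RNA polyA. The deposited counts are whole numbers without normalization. Per the file header, reads were counted without strand, each for every gene whose exons it overlapped, so 5431 genes share reads with another. Positions are from the table, and 99.2% of the matched symbols have the same start and end in the annotation used here.

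Counts of the 4 tumor libraries were analysed with edgeR 4.0.16 in R 4.3.3 (TMM, filterByExpr with a minimum count of 10, quasi-likelihood test, prior count 2, Benjamini-Hochberg adjustment over the 13703 genes). Levels are CPM scaled over all 6 libraries. SE comes from the fit. DESeq2 1.42.0 was an alternative, as were other scalings, filters, a fold threshold, a replicate block and leaving out each library. The steps were tested on simulated counts with a smaller common spread and fewer changed genes than found here. Figures were drawn with matplotlib 3.10.9. At depths of 86098417 to 128107088 counts, 48.2% of genes differed beyond counting noise between the pros replicates.

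The members and the 49 gene lists were chosen with earlier results of these data known, and so was the threshold of 0.05. Named genes are the 20 with the largest change in each direction (mean count at least 100, groups not overlapping), up to 8 members of each list with the largest change and up to 3 with the highest level, with pros, Syp, Imp, Eip93F and chinmo. The remaining genes that the text names were picked from their values. Lists were matched by symbol. No sequence was used here.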

Additional observations from a re-analysis of the deposited data

How the results depend on the processing

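No called gene changed its direction under any alternative tried. The groups did not overlap for any called gene, so this outcome was largely fixed beforehand. Against 3190 genes (1489 higher, 1701 lower), a test against a fold of 1.5 called 375 (218 higher, 157 lower), and library totals alone called 2435 higher and 956 lower. At 0.001 edgeR called 0 genes in either direction and DESeq2's Wald test 2005 (958 higher, 1047 lower). Leaving out one library gave 6 to 2836 genes (1 to 1489 higher, 5 to 1347 lower), the lowest without pros replicate 2 and the highest without pros Syp replicate 1. With 1 library in a group, its spread is assumed to be that of the other group. The number called, here and among the named genes below, thus depends on which pair sets the spread. It does not tell which library the changes rest on. The replicate number as a block gave 3466 genes (1741 higher, 1725 lower), sharing 1366 of the higher and 1549 of the lower calls. The numbers give no pairing of the samples: the deviations of same-numbered libraries correlated at 0.349, with only 2 pairs. DESeq2 (size factors or its own Wald test), both count filters, a joint fit of all 6 libraries and removal of ribosomal RNA genes gave 3214 to 4107 genes. Among the named genes, 421 lost their call without pros replicate 2, 340 without pros replicate 1, 96 without pros Syp replicate 2 and 63 without pros Syp replicate 1. With library totals alone 42 lost and 21 gained it, and the medians of 8 lists turned from below to above 0: glia, NB identity, germline, cell cycle inhibitors, embryonic temporal factors, nucleolar growth, cytochrome P450 and chemoreceptor genes, each at 0.11 or less. The causes were not tested. Genes near the level of 3 counts have folds that depend on the prior count.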

Other observations

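Some members outside the comparisons above are given as values only. The wild-type libraries, which enter no test, differed from each other over 3-fold in 211 of the 13703 genes tested. Among them were CG16826, at 1371 and 201 CPM, and LysP, at 40.3 and 5.67 CPM. Both are among the genes with the largest falls in pros Syp tumors, CG16826 from 459 CPM in both pros libraries to 59.1 and 12.2 CPM and LysP from 9.33 and 17.2 CPM to 0.451 and 0.299 CPM. Of 25 odorant-binding protein genes 5 rose and 1 fell, and of 41 glutathione and UDP-sugar transferase genes 8 rose and 2 fell. Of 55 cuticle protein genes 11 rose and 7 fell: 5 of those that fell, Lcp65Ag1, Lcp65Ag2, Lcp65Ag3, Lcp65Af and Lcp65Ae, lie within 1 cluster on 3L beside CR46005 and l(3)mbn, which also fell. l(3)mbn was at 4.14 and 4.45 CPM in pros and at 0.444 and 0.531 CPM in pros Syp tumors, and it shares 48.3% of its exons with CR46005.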
